A study of Homo sapiens with 2 samples.

Results

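Integrin, laminin and collagen genes were described in 2 RNA-seq libraries of MDA-MB-231 cells, a line from a human breast carcinoma of the triple-negative kind. Genes were taken by symbol from the protein-coding genes of GENCODE release 29, as ITGA or ITGB, LAMA, LAMB or LAMC, and COL with its type and chain. Described here are 82 such genes of 19951 protein-coding genes, namely 27 integrins, 11 laminins and 44 collagens. Of these, 29 genes reached 1 FPKM from reference transcripts in either library, as did 9775 protein-coding genes in all. The 29 genes comprised 10 integrins, 6 laminins and 13 collagens.

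Integrins are heterodimers of an α and a β chain that span the plasma membrane and tie the cell to the matrix outside and to actin inside. Laminins are trimers of an α, a β and a γ chain that form a sheet in the basement membrane, and collagens are trimers that build fibrils, networks or anchoring structures. In breast epithelium the laminin-binding integrins hold cells on the basement membrane, and in invasive carcinoma cells the collagen-, fibronectin- and laminin-binding integrins serve adhesion and migration.

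One library was made from cells with stable knockdown of RBMS1, an RNA-binding protein, and the other from control cells. In the study's methods such cells were produced by infection with lentivirus carrying an shRNA in pLKO.1, and the control is named as a pLKO.1 control. Both cultures were grown in L15 medium with serum, and neither label names a cytokine or drug. Each group had 1 library, so no test, standard deviation or replicate check was possible. Every difference below is a difference between these 2 libraries, and a change caused by RBMS1 cannot be told apart from a difference between cultures or library preparations.

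The values are FPKM, the fragments of a transcript divided by its length in kilobases and by the size of the library, as estimated by Cufflinks and summed over the transcripts of a gene. Because FPKM is scaled to transcript length, levels of different genes can be set side by side. The range given after a level is the sum of the intervals that Cufflinks wrote for the transcripts, and it covers estimation error within 1 library only. Ratios are log2 of knockdown over control after adding 1 FPKM to both. They are called log2 ratios here, and the added FPKM makes the ratio of a low gene smaller than the ratio of its levels. The median coverage behind 1 FPKM was 12.4 in the knockdown and 11.4 in the control library. RBMS1 itself was at 3.76 FPKM (3.12 to 5.39) in the knockdown and 24.1 FPKM (21.7 to 27.7) in the control library, 15.6% of control. All 6 fixed markers of MDA-MB-231, among them VIM and CD44, were above 1 FPKM and summed to 1211 FPKM in the knockdown and 1281 FPKM in the control library. Of 6 markers listed as absent or low in this line, ESR1, PGR, CDH1 and KRT5 were under 1 FPKM in both libraries, while GATA3 and EPCAM were above it. None of the fibroblast, leukocyte or endothelial markers reached 1 FPKM in either library.

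Among the 29 genes, 16 had a log2 ratio below 0 and 13 above 0. Their median was −0.09, against 0.02 over the 9775 protein-coding genes, and it was 0.01 when reference transcripts alone were summed. The log2 ratios ran from −0.90 for ITGA1 to 0.83 for COL18A1, so all 29 were within 2-fold once 1 FPKM had been added. The levels of ITGA1 themselves differed by more, at 39.8% of control, and its log2 ratio was −1.27 with 0.1 FPKM added and −1.18 in TPM. At least 2-fold lower were 0 of 29 genes, against 2.35% of all protein-coding genes. At least 2-fold higher were 0 of 29 genes, against 2.42% of all protein-coding genes.

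The intervals of both libraries were apart for 15 of 29 genes. They were apart with the lower value in the knockdown library for 10 genes (34.5%), against 11.8% of all protein-coding genes, and with the higher value for 5 genes (17.2%), against 13.7%. Of the protein-coding genes with a mean of at least 5 FPKM, 12.6% were apart and lower and 15.5% were apart and higher, against 8 and 5 of the 23 integrin, laminin and collagen genes at that level. These shares moved with the choice of transcripts. On reference transcripts alone, 9 genes were apart and lower and 5 apart and higher, against 16.2% and 18.8% of all protein-coding genes, and with the dominant reference transcript alone 14 and 8, against 24.1% and 28.6%. With all transcripts summed, the 10 lower genes were ITGA1, COL4A2, ITGAV, COL27A1, COL6A2, COL4A1, ITGB5, COL8A1, LAMB3 and ITGA5. The 5 higher genes were COL18A1, ITGB4, COL5A1, COL13A1 and COL6A1. The counts on reference transcripts alone were made up in part of other genes. There, ITGA1, COL27A1, ITGB5 and COL4A1 were no longer apart, while COL12A1, COL17A1 and LAMC1 were apart and lower. COL18A1 and COL13A1 were no longer apart either, while ITGA2 and ITGB1 were apart and higher.

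**Figure D1:**
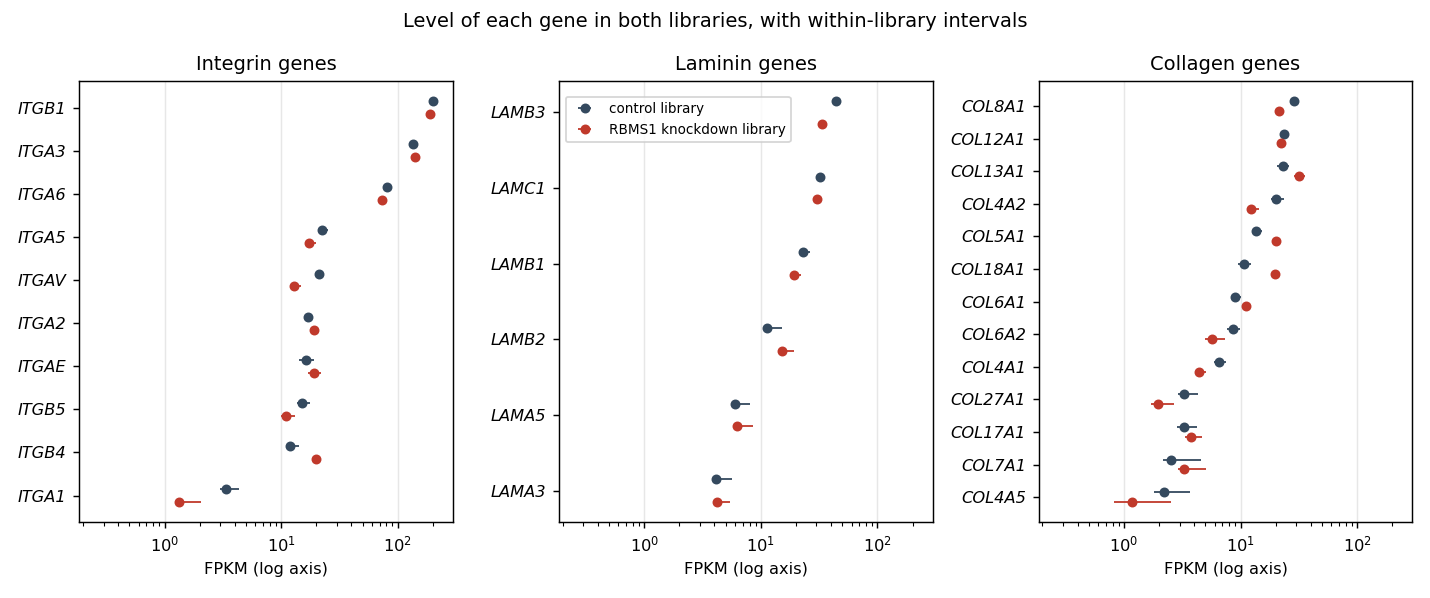
FPKM of each of the 29 genes (log axis) in the control library (dark) and the RBMS1 knockdown library (red), by family. Points are gene sums and lines are the summed within-library Cufflinks intervals. ITGB1 is the highest gene, at 200 FPKM in the control and 190 FPKM in the knockdown library, and the points of ITGA1 stand farthest apart, at 3.38 and 1.34 FPKM.

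**Figure D2:**
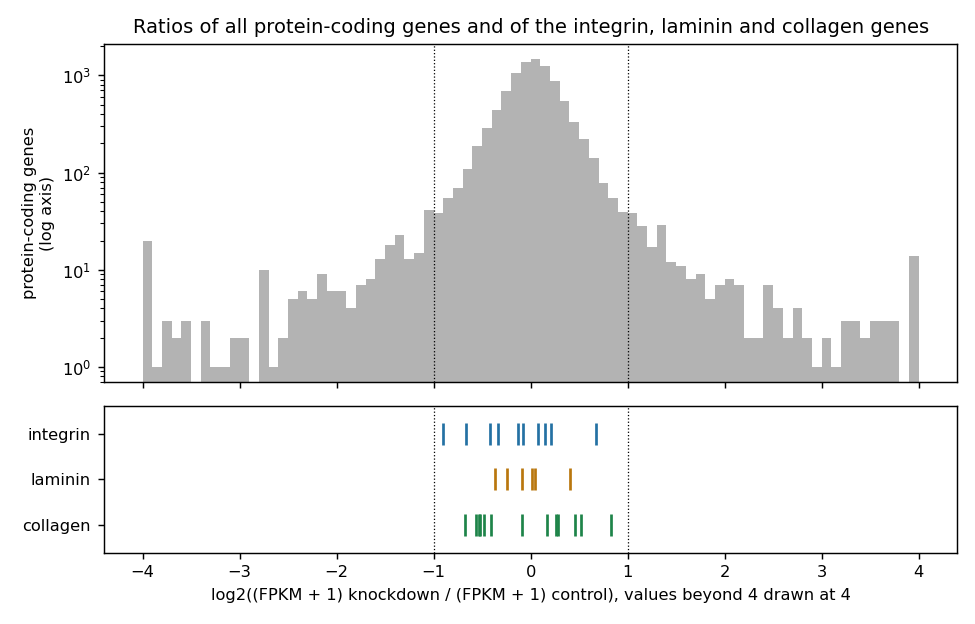
Number of protein-coding genes (log axis) by log2 ratio, with the ratios of the 10 integrin, 6 laminin and 13 collagen genes as ticks below. Dotted lines mark 2-fold. All 29 ticks lie between the lines, from −0.90 to 0.83.

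Cufflinks listed reference transcripts and also transcripts it had assembled from the reads, and both were summed where they shared an intron with the gene. Assembled transcripts entered the value of 16 of the 29 genes, and 13 genes had none in either library. Where fragments went to an assembled transcript in 1 library and to a reference transcript in the other, the reference value alone gives a different ratio. That ratio is printed beside each of the 29 genes it turns or moves past 2-fold.

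Of the 6 laminin genes, 3 had a log2 ratio below 0 and 3 above 0, and the intervals were apart for LAMB3 only (16.7%), against 25.5% of all protein-coding genes in either direction. LAMC1, the γ chain of widely distributed laminins, was at 30.1 FPKM (28.5 to 32.3) in the knockdown and 32.2 FPKM (30.4 to 34.5) in the control library, with overlapping intervals.

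LAMB3, a β chain of epithelial basement membranes, was at 33.7 FPKM (31.8 to 35.8) in the knockdown and 43.8 FPKM (41.7 to 46.1) in the control library, a log2 ratio of −0.37. It was the highest laminin chain in both libraries and made up 49.3% of the β chain FPKM in the knockdown and 56.1% in the control library. The transcript ENST00000356082 was at 28.5 and 43.8 FPKM, while ENST00000391911 was at 5.17 FPKM in the knockdown and listed at 0 in the control library. LAMA3, the α chain that assembles with LAMB3, was at 4.20 FPKM (3.94 to 5.48) in the knockdown and 4.15 FPKM (3.89 to 5.64) in the control library, a log2 ratio of 0.01. All of the LAMA3 value came from ENST00000313654, and ENST00000269217, a shorter transcript, was listed at 0 in both libraries. LAMB3 was thus at 77.0% and LAMA3 at 101% of the control level.

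The start of LAMB3 is shown because it was the laminin gene with intervals apart when all transcripts were summed. RefSeq promoter windows, from 250 bases before to 50 bases after a start on GRCh38.p14, were searched on both strands for 6 short motifs. The motifs were AP-1 (TGANTCA), SP1 (GGGCGG), the TATA box (TATAAA), the CCAAT box (CCAAT), the E-box (CACGTG) and NF-κB by name. Of the 29 genes, 25 had an entry, and for 23 of them the entry started within 500 bases of the start of the main reference transcript. Capitals mark any match to a motif, here 1 SP1 match and 3 NF-κB matches, of which a pair overlaps. The window lies at chr1:209652376-209652675 and is printed on the minus strand, the strand of the gene.
LAMB3: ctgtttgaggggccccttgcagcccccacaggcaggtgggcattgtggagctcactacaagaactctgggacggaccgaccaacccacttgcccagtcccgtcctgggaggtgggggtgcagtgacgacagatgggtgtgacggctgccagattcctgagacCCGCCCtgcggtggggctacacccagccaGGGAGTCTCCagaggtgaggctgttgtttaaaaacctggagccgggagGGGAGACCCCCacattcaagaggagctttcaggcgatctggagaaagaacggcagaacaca
An NF-κB match was present in 5 of the 23 windows (LAMB3, COL7A1, COL6A2, ITGA5 and ITGA1) and in 5.91% of all 35116 windows of the table. An SP1 match was present in 18 of the 23 windows (78.3%) and in 45% of all windows. The set of all windows was not limited by level or to 1 start per gene, while each of the 23 genes gave 1 window. The shares therefore come from unlike sets. A match describes letters in a window and is no sign of binding.

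The intervals of the remaining laminin chains overlapped. LAMB1, the widely used β chain, was at 19.2 FPKM (18.2 to 22.3) in the knockdown and 22.8 FPKM (21.7 to 26.2) in the control library. LAMA5, the α chain of many adult basement membranes, was at 6.25 and 6.03 FPKM. LAMB2, a β chain of mature basement membranes, was at 15.3 FPKM (14.04 to 19.4) and 11.3 FPKM (10.4 to 15.2), and its log2 ratio of 0.40 turned to −0.22 without an assembled transcript of the knockdown library. LAMA5 and LAMB1 overlap genes on the opposite strand, ADRM1 and DLD, and whether the libraries kept strand is not given in the sources used here.

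**Figure D3:**
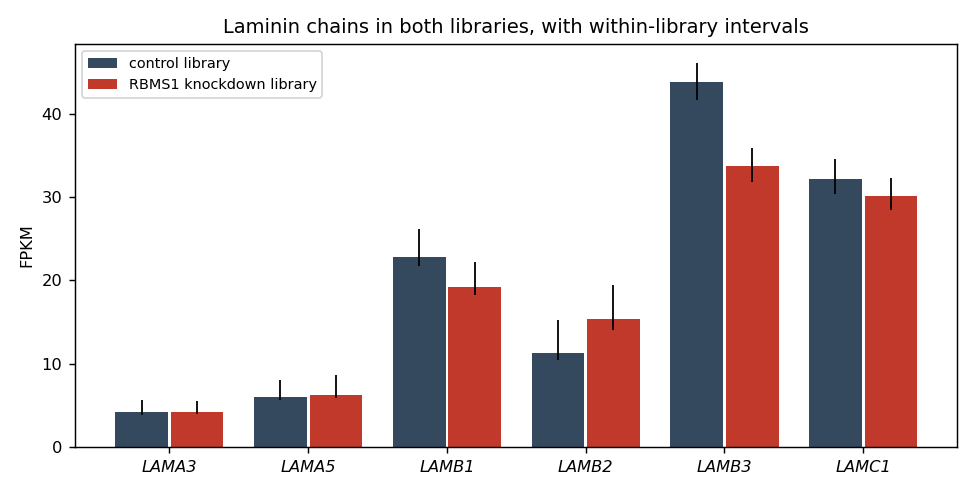
FPKM of the 6 laminin genes in the control library (dark bars) and the RBMS1 knockdown library (red bars), with the summed within-library intervals as lines. LAMB3 is at 43.8 FPKM in the control and 33.7 FPKM in the knockdown library, while LAMC1 is at 32.2 and 30.1 FPKM.

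ITGA3 and ITGA6, both laminin-binding, were the highest α chains in both libraries, while ITGA7, the other laminin-binding α chain, was listed at 0 in both. ITGA3, which binds laminin with ITGB1, was at 142 FPKM (136 to 150) in the knockdown and 134 FPKM (128 to 142) in the control library. ITGA6, which pairs with ITGB1 or with ITGB4 to bind laminin, was at 73.3 FPKM (69.7 to 77.9) and 80.1 FPKM (76.2 to 85.1). Their intervals overlapped, and their log2 ratios were 0.08 and −0.13. ITGA6 was carried by a pair of transcripts at near equal levels, ENST00000264107 at 38.3 and 40.0 FPKM and ENST00000409080 at 35.0 and 40.1 FPKM. Together ITGA3 and ITGA6 made up 80.6% of the FPKM of the α chains that pair with ITGB1 in the knockdown and 77.0% in the control library.

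ITGB1, the β chain shared by the largest group of integrins, was the highest of the 29 genes, at 190 FPKM (181 to 202) in the knockdown and 200 FPKM (190 to 213) in the control library. Its log2 ratio of −0.07 turned to 0.20 on reference transcripts alone, since an assembled transcript of 34.3 FPKM was listed in the control library only. The sum of its α partners per ITGB1 was 1.40 in the knockdown and 1.39 in the control library.

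ITGB4, the β chain that joins ITGA6 in hemidesmosomes, was higher in the knockdown library. It was at 19.7 FPKM (18.4 to 22.1) in the knockdown and 12.02 FPKM (11.02 to 14.1) in the control library, a log2 ratio of 0.67. Both of its listed transcripts were higher, ENST00000579662 at 11.2 against 6.75 FPKM and ENST00000450894 at 8.49 against 5.27 FPKM. ITGB4 had no assembled transcript, and its log2 ratio lay between 0.54 and 0.71 over all alternatives run. The level of ITGB4 per level of ITGA6 was 0.269 in the knockdown and 0.150 in the control library. GALK1 overlaps ITGB4 on the opposite strand and was at 9.32 and 9.91 FPKM.

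Of 4 α chains that bind the RGD motif of fibronectin and vitronectin, ITGAV and ITGA5 reached the minimum level. ITGAV, the α chain of the vitronectin receptors, was at 12.8 FPKM (12.2 to 14.7) in the knockdown and 20.9 FPKM (19.9 to 23.2) in the control library, a log2 ratio of −0.66. ITGA5, the α chain of the main fibronectin receptor, was at 17.4 FPKM (16.5 to 19.9) and 22.2 FPKM (21.1 to 25.1), a log2 ratio of −0.34. The intervals of both genes were apart with the lower value in the knockdown library, as they were for 11.8% of all protein-coding genes, neither had an assembled transcript, and each value came from 1 transcript. ITGB5, a partner of ITGAV, was at 10.9 FPKM (9.996 to 13.2) and 14.98 FPKM (13.8 to 17.6). Most of the ITGB5 value was held by assembled transcripts, and its log2 ratio of −0.42 turned to 0.29 without them. ITGB3, another partner of ITGAV, was listed at 0 in both libraries.

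The promoter window of ITGAV is shown because it was the lowest ratio among the integrins without an assembled transcript. It lies at chr2:186589806-186590105 on the plus strand and holds no match to any of the 6 motifs, so it has no capitals.
ITGAV: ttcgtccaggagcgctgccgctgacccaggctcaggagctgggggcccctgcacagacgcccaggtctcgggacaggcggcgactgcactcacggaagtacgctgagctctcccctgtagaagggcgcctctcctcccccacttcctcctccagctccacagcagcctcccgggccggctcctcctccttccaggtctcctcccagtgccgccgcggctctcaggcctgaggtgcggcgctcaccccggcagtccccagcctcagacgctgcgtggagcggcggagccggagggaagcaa

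The collagen-binding integrins depended on how transcripts were summed. ITGA2, the main collagen receptor chain of epithelial cells, was at 18.996 FPKM (18.1 to 19.98) in the knockdown and 17.04 FPKM (15.99 to 18.2) in the control library, a log2 ratio of 0.15. On reference transcripts alone its log2 ratio was 2.25, because in the control library 13.8 FPKM were held by an assembled transcript with 29 introns of the gene and 3.19 FPKM by the reference transcript. ITGA1, the other chain of this kind, was at 1.34 FPKM (1.22 to 2.04) and 3.38 FPKM (3.01 to 4.36). Its log2 ratio of −0.90 turned to 0.25 on reference transcripts alone. PELO lies inside ITGA1 on the same strand and was at 8.997 and 10.4 FPKM.

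ITGAE, known as the α chain of the integrin by which intraepithelial lymphocytes bind E-cadherin, was at 19.2 FPKM (16.97 to 21.96) in the knockdown and 16.4 FPKM (14.3 to 19.1) in the control library. All of this came from ENST00000572179, a transcript of 4 exons and 672 bases, so the value does not describe the whole gene. ITGB7, the partner of ITGAE, and ITGAM and ITGAX, chains of myeloid cells, were listed at 0 in both libraries.

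**Figure D4:**
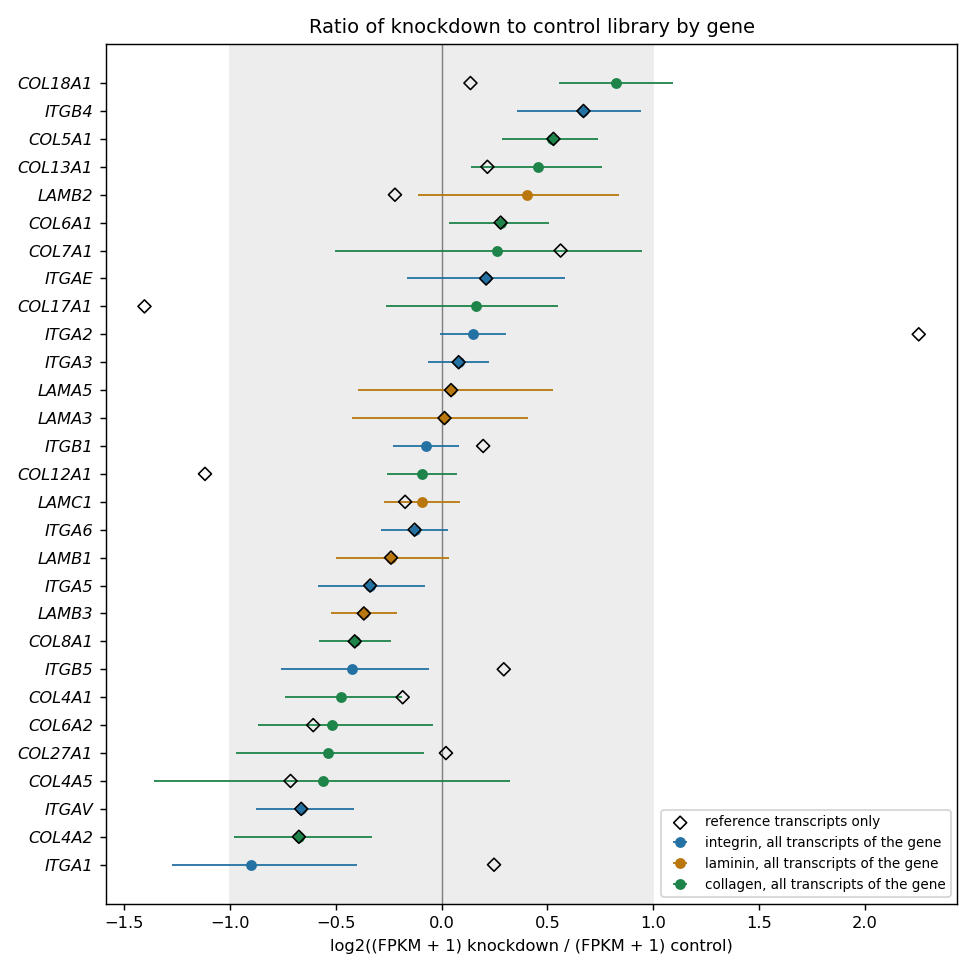
Log2 ratio of knockdown to control for each of the 29 genes, with all transcripts of the gene (filled points, coloured by family) and with reference transcripts only (open diamonds). Lines run over the ratios that the within-library interval bounds allow, and the grey band marks ratios within 2-fold. Points and diamonds part most for ITGA2 (0.15 and 2.25), COL17A1 (0.16 and −1.40), ITGA1 (−0.90 and 0.25) and COL12A1 (−0.09 and −1.12).

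Of the collagens that form networks, 4 reached the minimum level, and all 4 had a log2 ratio below 0, as did 46.5% of all protein-coding genes past the minimum. Their median log2 ratio was −0.52, and the intervals of 3 of the 4 were apart with the lower value in the knockdown library, against 11.8% of all protein-coding genes. COL4A2, a chain of the basement membrane collagen IV, was at 12.2 FPKM (11.5 to 14.5) in the knockdown and 20.1 FPKM (18.4 to 23.7) in the control library, a log2 ratio of −0.67. COL4A1, which forms a trimer with COL4A2, was at 4.39 FPKM (4.07 to 5.04) and 6.50 FPKM (5.89 to 7.48), a log2 ratio of −0.48, and −0.18 without an assembled transcript of the control library. With assembled transcripts summed, the intervals of both chains were apart, while those of COL4A1 overlapped on reference transcripts alone. COL4A2 had a higher level than COL4A1 in each library, by 2.78 times in the knockdown and 3.09 times in the control.

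COL4A5, a chain of a second collagen IV trimer, was at 1.17 FPKM (0.824 to 2.52) and 2.21 FPKM (1.81 to 3.67), with overlapping intervals. COL8A1, a chain of the short network collagen VIII, was at 21.4 FPKM (20.3 to 23.1) and 28.8 FPKM (27.4 to 30.8), a log2 ratio of −0.41. The intervals of COL8A1 were apart and its whole value came from the same transcript in both libraries.

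COL4A1 and COL4A2 are transcribed away from each other on chromosome 13, and their RefSeq starts are 127 bases apart. One window of 300 bases, chr13:110307034-110307333, therefore holds both starts, and it is shown because both chains were lower. It is printed on the plus strand, that of COL4A2. Counted from 1 at the left end, COL4A2 starts at base 251, and COL4A1 starts at base 124 on the other strand. Capitals mark 1 CCAAT box match and 1 SP1 match, which lie between the starts.
COL4A1 and COL4A2: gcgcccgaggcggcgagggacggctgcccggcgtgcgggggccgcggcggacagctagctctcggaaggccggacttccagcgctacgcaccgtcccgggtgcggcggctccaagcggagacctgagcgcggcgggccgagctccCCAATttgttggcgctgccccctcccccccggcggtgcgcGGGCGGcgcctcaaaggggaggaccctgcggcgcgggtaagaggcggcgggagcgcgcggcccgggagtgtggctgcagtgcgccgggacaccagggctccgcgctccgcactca
A CCAAT box match was present in the windows of 4 of the 23 genes (COL4A1, COL4A2, COL4A5 and COL17A1) and in 34.6% of all windows. COL4A1 and COL4A2 share most of their window, so they are not separate cases.

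The largest increase among the 29 genes was that of COL18A1, a basement membrane collagen whose end fragment is endostatin. It was at 19.8 FPKM (18.5 to 21.4) in the knockdown and 10.8 FPKM (9.50 to 12.3) in the control library, a log2 ratio of 0.83. The reference transcript ENST00000400337 was at 5.56 FPKM in the knockdown and 4.97 FPKM in the control, with a log2 ratio of 0.14, so most of the difference was in assembled transcripts. The knockdown library held an assembled transcript of 42 exons at 14.3 FPKM, and assembled transcripts of 42 and 32 exons were at 1.95 and 3.83 FPKM in the control library. SLC19A1, a folate transporter gene that overlaps COL18A1 on the opposite strand, was at 12.8 FPKM in the knockdown and 6.47 FPKM in the control library. Its part in the COL18A1 value was not tested.

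The window of COL18A1 is shown as that of the gene with the largest increase. It lies at chr21:45404915-45405214 on the plus strand, and capitals mark 9 SP1 matches, one pair of which overlaps in a single run.
COL18A1: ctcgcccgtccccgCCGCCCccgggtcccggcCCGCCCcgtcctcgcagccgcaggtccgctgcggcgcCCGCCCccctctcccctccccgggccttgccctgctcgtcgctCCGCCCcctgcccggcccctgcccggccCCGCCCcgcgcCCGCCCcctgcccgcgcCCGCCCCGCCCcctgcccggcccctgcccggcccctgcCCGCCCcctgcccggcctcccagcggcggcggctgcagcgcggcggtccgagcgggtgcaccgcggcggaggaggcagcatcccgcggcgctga

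COL5A1, a chain of the collagen that starts fibrils of collagen I, was at 20.1 FPKM (18.9 to 21.9) in the knockdown and 13.7 FPKM (12.7 to 15.3) in the control library. Its log2 ratio was 0.52 with and 0.53 without assembled transcripts, so its direction did not rest on them. COL27A1, the other fibrillar chain past the minimum level, was at 1.96 FPKM (1.69 to 2.69) and 3.29 FPKM (2.91 to 4.28). Its log2 ratio of −0.54 was 0.02 on reference transcripts alone. The chains of the common fibril collagens, COL1A1, COL1A2 and COL3A1, were all under 1 FPKM in both libraries, with COL1A1 at 0.470 and 0.797 FPKM.

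The collagen VI chains differed in opposite directions. COL6A1 was at 11.04 FPKM (10.4 to 12.2) in the knockdown and 8.92 FPKM (8.32 to 10.1) in the control library, a log2 ratio of 0.28. COL6A2 was at 5.67 FPKM (4.98 to 7.43) and 8.55 FPKM (7.66 to 9.92), a log2 ratio of −0.52. Both chains are parts of 1 trimer that forms beaded filaments, and their genes lie on the same strand of chromosome 21, 93046 bases apart. The intervals of each gene were apart, and the directions were the same on reference transcripts alone.

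COL13A1 and COL17A1 are transmembrane collagens of cell adhesion sites, and COL17A1 is a part of hemidesmosomes. COL13A1 was at 31.9 FPKM (28.9 to 35.7) in the knockdown and 22.97 FPKM (20.7 to 26.2) in the control library, the highest collagen of the knockdown library. Its log2 ratio was 0.46, and 0.22 on reference transcripts alone. COL17A1 was at 3.76 FPKM (3.34 to 4.68) and 3.24 FPKM (2.88 to 4.21), a log2 ratio of 0.16. In the knockdown library most of COL17A1 was held by an assembled transcript of 36 exons, while the reference transcript had 56, and on reference transcripts alone the log2 ratio was −1.40.

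COL12A1, a fibril-associated collagen, was at 22.1 FPKM (20.9 to 23.8) and 23.6 FPKM (22.5 to 25.2), a log2 ratio of −0.09 that was −1.12 on reference transcripts alone. COL7A1, the chain of the anchoring fibrils below hemidesmosomes, was at 3.26 FPKM (2.91 to 5.10) and 2.55 FPKM (2.17 to 4.54). The intervals of both genes overlapped.

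The other 53 integrin, laminin and collagen genes did not reach the minimum level, and 18 of them were listed at 0 in both libraries. Among those at 0 were the laminin chain gene LAMC3 and the integrin gene ITGA8. ITGBL1, an integrin-like gene that the symbols take in, also stayed below the minimum. The genes just outside the minimum by their reference value were ITGA10, at 0.709 FPKM in the knockdown and listed at 0 in the control library, COL10A1 at 0.431 and 0.525 FPKM, and COL1A2 at 0.283 and 0.481 FPKM. Those just inside were ITGA1, at 1.34 and 0.973 FPKM by its reference value, and COL4A5, at 0.630 and 1.67 FPKM.

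Genes that work with integrins, laminins and collagens were taken as 4 lists, each described by the same minimum level. Of 28 adhesion adaptor genes, which link integrins to actin and signalling, 23 reached it, with a median log2 ratio of 0.07. In that list 1 gene (4.35%) was at least 2-fold lower and 0 were higher, against 2.35% and 2.42% of all protein-coding genes. TNS4, a tensin without an actin-binding part, was at 0.305 FPKM (0.162 to 0.636) in the knockdown and 2.17 FPKM (1.63 to 3.07) in the control library, a log2 ratio of −1.28, and −0.81 on reference transcripts alone. The largest increase was that of VCL, vinculin, with 62.4 and 39.1 FPKM and a log2 ratio of 0.66, or 0.12 on reference transcripts alone. On reference transcripts alone, FERMT1 and SRC were at least 2-fold lower, with log2 ratios of −1.37 and −1.50. ACTN4 was then at least 2-fold higher, at 258 FPKM in the knockdown and listed at 0 in the control library. The shares of all protein-coding genes in that setting were 5.1% and 5.4%.

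Of 17 non-integrin receptors and integrin partners, 16 reached the minimum, with a median log2 ratio of 0.06. SDC4, a heparan sulfate co-receptor for fibronectin, was at 21.99 FPKM (21.1 to 22.9) in the knockdown and 102 FPKM (99.9 to 104) in the control library, a log2 ratio of −2.16 that came from reference transcripts alone. The largest increase was that of BCAM, a receptor for LAMA5 laminins, at 3.27 FPKM (2.68 to 4.72) and 1.16 FPKM (0.870 to 2.39), a log2 ratio of 0.98. By the log2 ratio with 1 FPKM added, 1 gene of this list (6.25%) was at least 2-fold lower and 0 were higher, although the levels of the low genes BCAM and SDC2, a syndecan at 3.38 and 1.52 FPKM that is named because of its values, differed by more than that. By the same ratio, all protein-coding genes gave 2.35% and 2.42%. On reference transcripts alone, DST, at 67.8 and 21.3 FPKM, and SDC2 were at least 2-fold higher, with log2 ratios of 1.63 and 1.07. In that setting 5.4% of all protein-coding genes were at least 2-fold higher.

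Of 18 other matrix ligands, 8 reached the minimum, with a median log2 ratio of 0.19, and 1 of them (12.5%) was at least 2-fold lower, against the same 2.35% of all protein-coding genes. FBN1, fibrillin, was outside that count only because 1 FPKM was added, with levels of 2.05 and 4.12 FPKM, and it is named because of these values. Its log2 ratio of −0.75 turned to 0.20 on reference transcripts alone. THBS1, the matricellular thrombospondin, was at 178 FPKM (170 to 187) in the knockdown and 503 FPKM (482 to 526) in the control library, a log2 ratio of −1.49. The direction of THBS1 rested on assembled transcripts, since its reference value was 81.6 FPKM in the knockdown and listed at 0 in the control library. FN1, fibronectin, the ligand of ITGA5, was at 31.3 FPKM (29.5 to 35.0) and 19.7 FPKM (18.4 to 23.1), a log2 ratio of 0.64 that needed no assembled transcript. FN1 was therefore higher in the library in which its receptor chains ITGA5 and ITGAV were lower.

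Of 32 genes of collagen synthesis and crosslinking, 19 reached the minimum, with a median log2 ratio of −0.15. At least 2-fold lower or higher were 0 of the 19, against 2.35% and 2.42% of all protein-coding genes. LOXL2, a lysyl oxidase that crosslinks collagen IV, had the largest decrease of the list by a small margin, at 43.2 FPKM (41.1 to 46.8) in the knockdown and 62.7 FPKM (59.8 to 67.3) in the control library, a log2 ratio of −0.53. P4HA2, at 7.20 and 10.8 FPKM with overlapping intervals, also had a rounded log2 ratio of −0.53. On reference transcripts alone, PLOD3 (−0.74) and LOXL1 (−0.62) had lower log2 ratios than LOXL2. LOX, the related enzyme of fibrillar collagens, had the largest increase, at 17.3 FPKM (16.03 to 18.8) and 9.98 FPKM (9.36 to 10.9), a log2 ratio of 0.73, and 0.36 on reference transcripts alone.

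**Figure D5:**
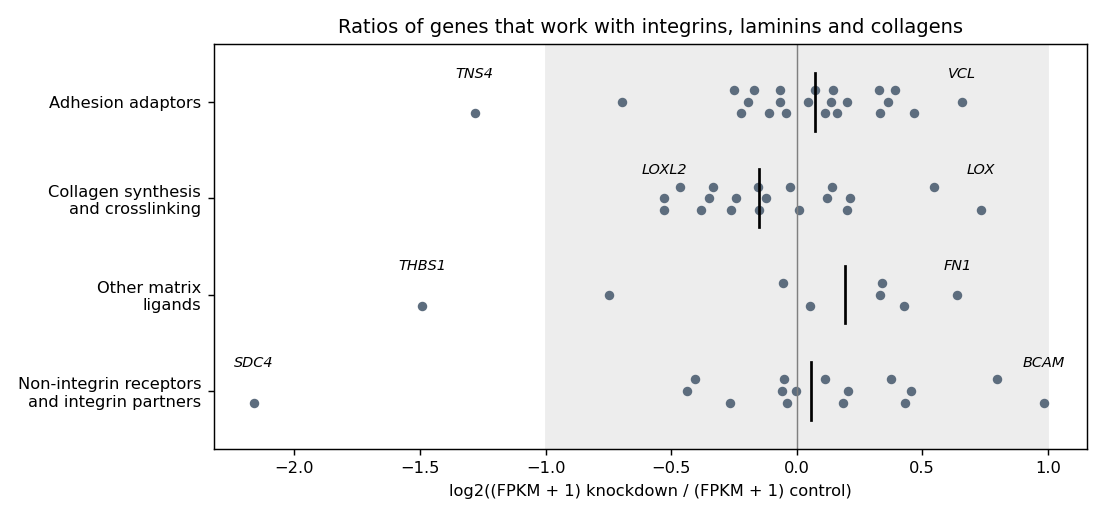
Log2 ratio of knockdown to control for each gene of 4 lists that reached 1 FPKM (points, spread vertically only for legibility), with the median of each list as a black line and the gene of the largest decrease and increase named. The grey band marks ratios within 2-fold, and SDC4 at −2.16, THBS1 at −1.49 and TNS4 at −1.28 lie outside it.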

How the data were processed

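RNA-seq was carried out on 1 RBMS1 knockdown and 1 control library of MDA-MB-231 cells, grouped by their labels. Per the submitters' processing notes, TopHat2 2.0.9, Bowtie2 2.0.6, Cufflinks 2.1.1 and Cuffdiff 2.1.1 were used. The authors deposited, per library, reference and assembled transcripts with FPKM, an interval (by default the 95% interval of Cufflinks) and coverage. Read counts, so the depth in reads, read length, strand and annotation release are not given in the sources used here. The authors' own comparison table (FPKM, log2 fold change, p-value and q-value) was not used.

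Reference transcripts were joined to GENCODE release 29 by identifier, with the same start for 98.1% of them in each library. Assembled transcripts that shared at least 1 intron on the same strand were given to the gene sharing most introns (6507 in the knockdown and 6583 in the control library). The other assembled transcripts, which held 54.9% and 60.3% of the listed FPKM, were not used. Gene FPKM was the sum of both kinds. The minimum was a reference FPKM of 1 in either library, 1 FPKM was added before log2, and the fold threshold was 2. All genes past the minimum are named, and from each list the largest decrease and increase, with some further list genes named because of their values. Genes of opposite strands and near-identical copies may share fragments. COL4A3BP, which is not a collagen, was left out. A total of 1 gene that the symbols take is not reported here, and it is in no count over these families. Promoter windows came from RefSeq (GRCh38.p14), and ITGB4, ITGA3, COL6A1 and COL8A1 had no entry.

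The alternatives tried were pseudocounts of 0.1 and 5 FPKM, 3 further scalings, reference or dominant transcripts only, other minimum levels, and genes without assembled transcripts, the last added after seeing the data. The genes and lists were chosen with earlier results of these data known. The summing and ratio steps were tested on simulated data. Python 3.11.15, numpy 2.4.6, pandas 2.3.3 and matplotlib 3.10.9 were used.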

Additional observations from a re-analysis of the deposited data

How the results depend on the processing

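The number of genes at least 2-fold lower was 0 with all transcripts summed, 1 with a pseudocount of 0.1 FPKM and with TPM (ITGA1), and 2 when reference transcripts alone or the dominant one alone were used (COL12A1 and COL17A1). In the last pair of settings 1 gene, ITGA2, was at least 2-fold higher, where the main value is 0. With reference transcripts only, 5.1% of all protein-coding genes were at least 2-fold lower and 5.4% higher. Among the 13 genes with no assembled transcript, 0 were past 2-fold and the intervals of 7 were apart (5 lower, 2 higher), against 15 of 29. Of the 5385 protein-coding genes with none, 2.64% were past 2-fold in the lower and 2.86% in the higher direction, and the intervals of 11.9% and 14.7% were apart in these directions. The median log2 ratio was 0.01 on reference transcripts alone and between −0.13 and −0.02 in the other alternatives. The sign of the log2 ratio held for 23 of 29 genes in all alternatives and turned with transcript choice for COL17A1, ITGB5, ITGB1, LAMB2, COL27A1 and ITGA1. Pseudocounts and scalings turned none. RBMS1 was at −1.73 with a pseudocount of 5 FPKM, against −2.40. No paired analysis was possible because each group has 1 library. Leaving out a library was not possible for the same reason. The intervals hold no variation between cultures.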

Other observations

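Genes below the minimum level by their reference transcripts reached 1 FPKM once assembled transcripts were added in 3 cases. COL6A3, the large chain of the collagen VI trimer, was at 3.02 FPKM (2.65 to 4.36) in the knockdown and 1.84 FPKM (1.47 to 3.24) in the control library, while its reference transcripts were listed at 0 and at 0.365 FPKM, so its direction rested on assembled transcripts. COL9A2, a chain of the fibril-associated collagen IX, was at 1.24 and 1.12 FPKM. ITGA10, a collagen-binding α chain, was at 1.16 FPKM (0.652 to 1.75) and 0.177 FPKM (0.0451 to 0.520), a log2 ratio of 0.87 with intervals apart, and its reference value was 0.709 FPKM against a listed 0.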
